A study of Danio rerio with 1536 samples.

Results

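The cells described here are adult zebrafish spinal motoneurons (MNs) with the calcium-buffering parvalbumin gene pvalb6 and without the markers of fast or caudal MNs. The group is called slow-intermediate MNs, since pvalb6, grin1b and esrrga marked the clusters that the study assigned to slow and intermediate MNs. The study identified those MNs by dye labelling from the muscle and by soma position, and recorded from MNs with an esrrga reporter. The cells here were chosen by RNA levels alone. The members were chosen by measured values of 8 genes in single cells, and 130 of 316 MNs met the limits, 71 on plate 1 and 59 on plate 2. A well had to hold 2000 to 9000 detected genes and at most 30% spike-in reads. Levels per cell were given in CPM, the reads of a gene scaled to the cell's total of reads on genes. The cholinergic genes chata (choline acetyltransferase) and slc18a3a (the vesicular acetylcholine transporter) had to reach 200 CPM together, with pkd2l1, a channel of cerebrospinal-fluid-contacting neurons, below 500 CPM and tph2, which makes serotonin, below 1000 CPM. Of these MNs, the slow-intermediate ones had at least 100 CPM of pvalb6, less than 400 CPM of calb1 and chrna2b together, and less than 50 CPM of hoxb13a. They were compared with 56 fast MNs (calb1 and chrna2b together at 400 CPM or more, hoxb13a below 50 CPM), 90 unmarked MNs (none of the 3 marker limits met) and 40 caudal MNs (hoxb13a at 50 CPM or more).

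All cells came from untreated 7-week-old zebrafish of either sex of the transgenic line Tg(isl1a:GFP), in which regulatory DNA of isl1a drives green fluorescent protein (GFP) in MNs and in some other spinal neurons. For each of 2 plates of 384 wells, 6 to 10 spinal cords were pooled and dissociated with papain, and single cells positive for GFP and for the nuclear dye DRAQ5 were sorted into wells for full-length Smart-seq2 sequencing. The series also holds 2 plates of Tg(chx10:GFP) cells, in which GFP marks V2a interneurons and which enter only side values here. The plates were the replicates (n = 2), so that cells of 1 pool were never counted as replicates.

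Axial MNs of fish fall into slow, intermediate and fast types, which drive slow, intermediate and fast muscle fibres and are recruited in that order as swimming speeds up. All of them release acetylcholine at the muscle. Slow MNs fire in a sustained manner, and in mammals the orphan nuclear receptor gene Esrrg marks gamma and slow MNs. Parvalbumin, calbindin and the Necab proteins bind calcium, and NMDA receptors, which need the obligatory GRIN1 subunit, carry slow glutamate-driven currents in spinal locomotor neurons.

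Of the 1536 wells in the series, 1247 passed the limits on genes and spike-ins, 622 of them from the isl1a:GFP plates. The slow-intermediate MNs made up 63.4% of the MNs of plate 1 (95% exact binomial interval 53.8 to 72.3) and 28.9% of those of plate 2 (22.8 to 35.7), so the 2 pools differed in their mixture, and the interval covers counting error only. Smart-seq2 reads carry no molecular identifiers. The sums of cells per plate and group held 2719766 to 32212599 reads on genes, with the smallest sums in the 8 caudal and 10 fast MNs of plate 1. The members kept the MN genes prph (1513 and 4385 CPM on plates 1 and 2), isl1a (218 and 334 CPM) and mnx1 (109 and 109 CPM) in the summed counts, scaled with TMM factors. Markers of cerebrospinal-fluid-contacting, serotonergic, V2a, endothelial, blood and muscle cells summed to 0.0388 to 37.8 CPM per list in the members. Only 3 of 4 endothelial, 2 of 4 blood and 2 of 5 muscle markers were matched to a row. The cerebrospinal-fluid-contacting and serotonergic lists hold pkd2l1 and tph2, which the rule itself limited. Of 3 glutamatergic markers 0 were matched, so that list was not checked. The myelin genes of oligodendrocytes and Schwann cells summed to 1232 and 687 CPM in slow-intermediate MNs, against 599 and 630 CPM in fast, 1365 and 1622 CPM in unmarked and 1329 and 959 CPM in caudal MNs. Most of that sum came from mbpa and mbpb, while sox10 and olig1 were at 0 to 0.032 CPM in the members. The GABA and glycine list summed to 61.2 and 59.7 CPM in the members, the radial glia list to 39.7 and 20.7 CPM and the immune list to 27.2 and 176 CPM, with apoeb alone at 26.2 and 175 CPM. In these lists 3 of 4, 2 of 6 and 5 of 6 markers were matched, in that order.

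The genes of the rule are a description of the choice, with no test. pvalb6 was at a median of 826 CPM (lowest 107, highest 2833) in the 71 members of plate 1 and 876 CPM (lowest 171, highest 4132) in the 59 of plate 2. Few cells lay near the limit of 100 CPM. The 5 members nearest to it had 107 to 178 CPM, and the 5 unmarked MNs nearest to it had 53.4 to 79.2 CPM. Of the 90 unmarked MNs, 74 had no pvalb6 read, 8 had less than 10 CPM and 8 had 10 CPM or more. The limit on the fast markers was less clear, as 21 of the 130 members had 100 CPM or more of calb1 and chrna2b together and 70 had no read of either. A further 6 wells carried both pvalb6 and the fast markers and were counted as fast MNs, and 8 caudal MNs had at least 100 CPM of pvalb6. Of those 6 wells, 3 were among the 10 fast MNs of plate 1. These had 7246, 8424 and 8362 detected genes, beside a median of 4512 in the fast MNs of that plate. The study also counted more calb1 puncta in intermediate than in slow MNs. Whether the limit on calb1 placed intermediate MNs among the fast MNs was not tested. Members carried chata at 3327 and 2658 CPM in the summed counts, against 1374 and 1434 CPM in fast MNs, 1948 and 802 CPM in unmarked MNs and 1707 and 1084 CPM in caudal MNs.

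The markers grin1b and esrrga were not used by the rule, although the study found them on these same plates, so their direction is not independent evidence. The NMDA receptor subunit gene grin1b was present in nearly every member and scarce in fast MNs. Its single-cell median was 753 CPM (0 to 2607) on plate 1 and 516 CPM (0 to 2417) on plate 2 in slow-intermediate MNs, against 0 CPM on both plates in fast MNs. The nuclear receptor gene esrrga had medians of 921 CPM (0 to 2143) and 802 CPM (0 to 2598) in the members, against 27.7 and 398 CPM in fast MNs. The medians therefore stood apart for grin1b on both plates although the ranges overlapped, whereas for esrrga the fast MNs of plate 2 overlapped the members widely. In unmarked MNs the medians were 159 and 0 CPM for grin1b and 120 and 0 CPM for esrrga, and in caudal MNs 632 and 71.2 CPM and 175 and 105 CPM. The other receptor of that pair, esrrgb, had no read in any of the 130 members.

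**Figure D1:**
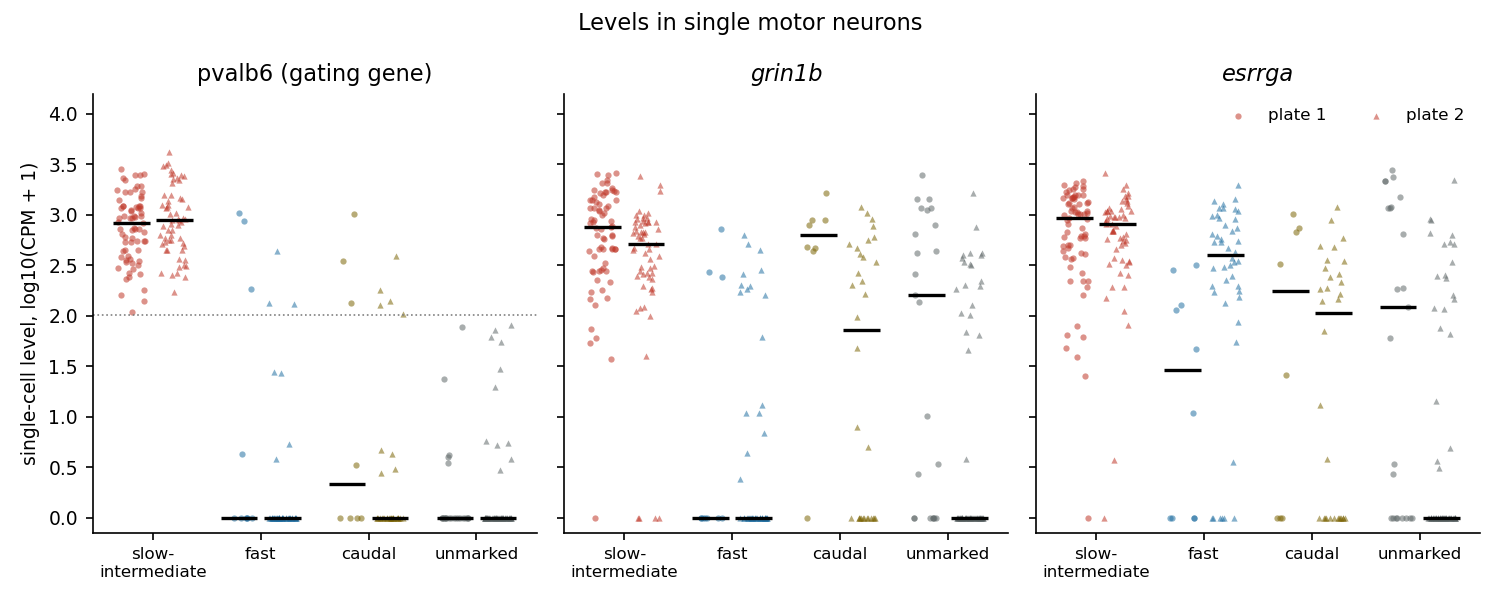
Single-cell levels of pvalb6, grin1b and esrrga as log10(CPM + 1) in slow-intermediate, fast, caudal and unmarked MNs, each point 1 cell, circles for plate 1, triangles for plate 2, with black lines at the medians and a dotted line at the pvalb6 limit of 100 CPM. The medians of grin1b were 753 and 516 CPM in slow-intermediate MNs and 0 CPM in fast MNs, while many fast MNs of plate 2 carried esrrga, with a median of 398 CPM.

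Read as shares of cells at 100 CPM or more, grin1b reached that level in 93.0% and 89.8% of slow-intermediate MNs on plates 1 and 2, against 30% and 21.7% of fast MNs. esrrga did so in 90.1% and 94.9% of slow-intermediate MNs, against 40% and 80.4% of fast MNs. Both genes reached it together in 62 of 71 and 51 of 59 members, against 1 of 10 and 9 of 46 fast MNs, 12 of 23 and 9 of 67 unmarked MNs, and 4 of 8 and 11 of 32 caudal MNs. The markers thus occurred together in most members and apart in most fast MNs, where 28 of the 46 cells of plate 2 had esrrga alone.

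A limit of 100 CPM was used because reads of foreign genes were common. The peptide gene urp2, which belongs to cerebrospinal-fluid-contacting neurons, had a read in 73.2% and 78.0% of members, at medians of only 2.37 and 3.27 CPM. In 73 and 82 cerebrospinal-fluid-contacting cells of the same plates, with medians of 414434 and 430549 reads against 454056 and 430809 in the members, grin1b reached 100 CPM in 2.74% and 0%, and esrrga in 0% on both plates (0 of 73 and 0 of 82 cells allow shares of up to 4.11% and 3.66%). With every cell thinned to 287000 reads, which left out 4 and 2 members and 2 and 4 fast MNs, a grin1b read was seen in 98.5% (91.96 to 99.96) and 93.0% (83.0 to 98.1) of slow-intermediate MNs, against 37.5% (8.52 to 75.5) and 35.7% (21.6 to 52.0) of fast MNs. The unthinned shares were 98.6% and 93.2% in slow-intermediate MNs and 30% and 37.0% in fast MNs. Slow-intermediate MNs lay above fast MNs at either depth.

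Zebrafish carry a pair of GRIN1 genes, and the MN groups used them in different proportions. Of all reads on grin1a and grin1b together, grin1b took 68.7% and 59.9% in slow-intermediate MNs, against 8.14% and 10.6% in fast MNs. The share was 50.03% and 25.05% in unmarked MNs and 74.5% and 51.9% in caudal MNs. These shares are not corrected for transcript length and are compared between groups only. grin1a was at 450 and 387 CPM in the summed counts of slow-intermediate MNs, against 1298 and 532 CPM in fast MNs (log2 difference -1.02 ± 0.39 SE, edgeR adjusted p = 0.76). Its levels did not overlap between the groups, which held for 38.1% of all genes, and it did not pass the test.

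Among the members, the markers varied with little relation to pvalb6. Spearman correlations across cells of 1 plate, which share a pool, a sort and a depth range, are given without a test. pvalb6 and grin1b had rho = 0.21 on plate 1 (n = 71) and 0.12 on plate 2 (n = 59), and pvalb6 and esrrga had -0.01 and 0.21. grin1b and esrrga had 0.48 and 0.39, higher than either had with pvalb6 on both plates. The rule cut off pvalb6 below 100 CPM and set no limit on grin1b or esrrga, so the pairs cannot be ranked on equal terms. The number of detected genes had rho = 0.14 and 0.37 with pvalb6.

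The slow-intermediate MNs also held more detected genes than the other MNs. The medians were 5334 and 5537 genes in slow-intermediate MNs on plates 1 and 2, against 4512 and 3836 in fast MNs, 3837 and 3385 in unmarked MNs and 3580 and 3582 in caudal MNs. Reads on genes per spike-in read, a measure of RNA content per well, had medians of 112 and 2775 in slow-intermediate MNs, against 72.6 and 971 in fast, 69.4 and 988 in unmarked and 60.5 and 1629 in caudal MNs. The spike-in ratio differed far more between plates than between groups, so it is compared only within a plate. On plate 2 spike-in reads were a median of only 0.0359% of the members' reads, with a lowest share of 0%. Wells with no spike-in read were counted as having 1, so the ratio of plate 2 rests on few spike-in reads and is a rough measure. Mitochondrial reads made up a median of 4.02% and 4.098% of slow-intermediate MNs, against 2.60% and 2.83% of fast MNs, and GFP reads 0.166% and 0.129%, against 0.281% and 0.572%. Within each plate the members had the highest median of detected genes, of the spike-in ratio and of the mitochondrial share, and the part that RNA content plays in the differences between groups was not tested beyond thinning the cells.

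**Figure D2:**
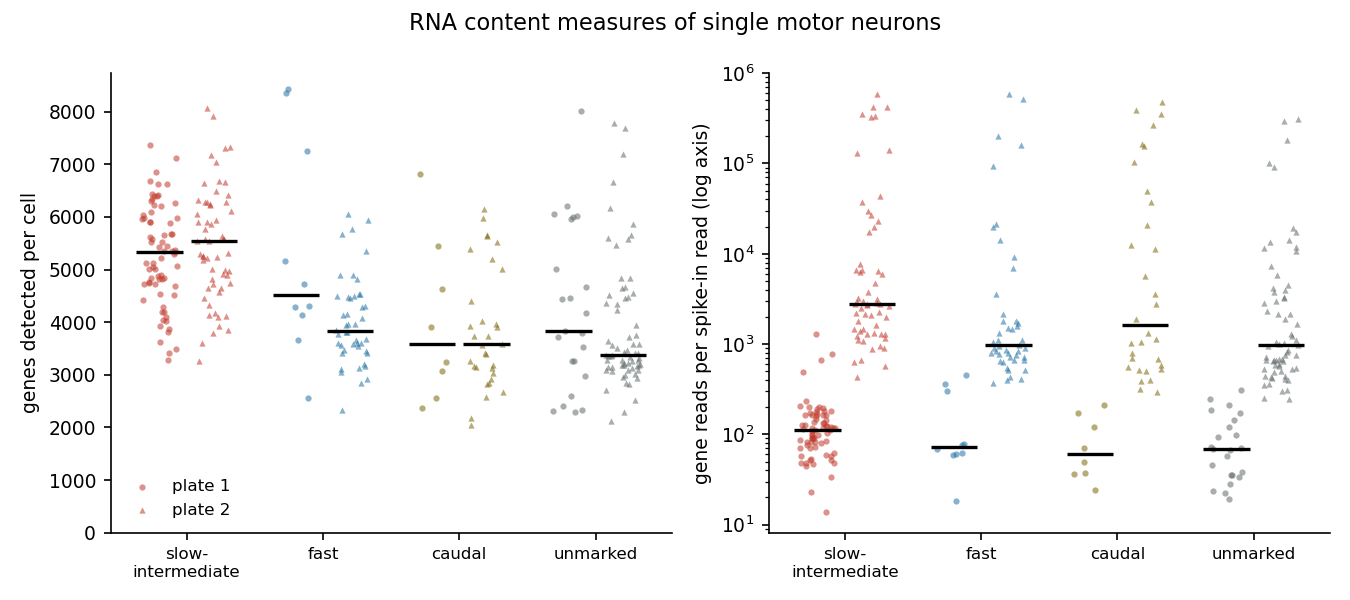
Detected genes per cell (left) and reads on genes per spike-in read on a log axis (right) in slow-intermediate, fast, caudal and unmarked MNs, each point 1 cell, circles for plate 1, triangles for plate 2, black lines at the medians. Slow-intermediate MNs had medians of 5334 and 5537 detected genes, above the medians of all 3 other groups on each plate.

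The first comparison asked which genes set slow-intermediate MNs apart from fast MNs. Slow-intermediate MNs carried more of a SNAP25 gene of the synaptic release machinery, of ATP1B1, a beta subunit of the sodium/potassium pump, of the glycolytic genes gapdhs and ALDOC, of the neuropeptide precursor gene pnoca and of the transcription factor genes foxp4 and npas1. They carried less of the transcription factor genes neurod1, mafbb, nfixb, sox2 and mecom and of the neuropeptide gene adcyap1b. Symbols in capitals are those of the human ortholog, given where the zebrafish copy was not resolved. In counts summed per plate and group, a quasi-likelihood fit in edgeR, with the plate in the model, called 27 of 17282 genes at an adjusted p below 0.05 and a log2 difference of at least 1 in size, which is 0.156% of all genes tested. Of these, 13 genes (0.0752%) were higher and 14 genes (0.081%) lower in slow-intermediate MNs, and 975 genes (5.64%) had an unadjusted p below 0.05. The median log2 difference of all genes was 0.27, and 0.14 with RLE factors in place of TMM factors, so that differences are best read against that shift.

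The neuronal SNARE gene SNAP25 (ENSDARG00000058117) had 1458 and 1805 CPM in slow-intermediate MNs, against 218 and 220 CPM in fast MNs (log2 difference 2.89 ± 0.30 SE, adjusted p = 0.0054). Its levels did not overlap, and a second gene with that symbol (ENSDARG00000020609) behaved otherwise, with 4451 and 2899 CPM against 6848 and 1885 CPM (log2 difference -0.01 ± 0.29, adjusted p = 1.00). The copies were told apart only by the authors' unique mapping of reads. grin1b had 990 and 577 CPM in slow-intermediate MNs, against 115 and 62.7 CPM in fast MNs (log2 difference 3.16 ± 0.47, adjusted p = 0.031). The pump gene ATP1B1 had 3184 and 2775 CPM, against 535 and 320 CPM (log2 difference 2.88 ± 0.40, adjusted p = 0.023). The called SNAP25 gene, grin1b and ATP1B1 were each higher in the members of both plates than in the fast MNs of either plate. Levels did not overlap between these groups for 38.1% of all genes.

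Genes of glucose and nucleotide metabolism stood among the called genes as well. The glyceraldehyde-3-phosphate dehydrogenase gene gapdhs had 7890 and 10010 CPM in slow-intermediate MNs, against 2614 and 2886 CPM in fast MNs (log2 difference 1.71 ± 0.26, adjusted p = 0.031). The aldolase gene ALDOC had 6090 and 3994 CPM, against 1827 and 642 CPM (log2 difference 2.24 ± 0.35, adjusted p = 0.032). The adenylate kinase gene ak5 had 324 and 306 CPM, against 31.7 and 19.3 CPM (log2 difference 3.67 ± 0.52, adjusted p = 0.023). These 3 genes were picked by the test and not as a list.

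The neuropeptide gene pnoca, which encodes the nociceptin precursor, was nearly confined to slow-intermediate MNs in this pair, with 214 and 90.8 CPM against 0 and 0.0497 CPM in fast MNs. Only 25 of 71 and 11 of 59 members had a pnoca read, and 1 cell held 40.3% of the members' reads on plate 2. Members held 6684 and 2340 pnoca reads in sums of 32212599 and 26472038 reads. Unmarked MNs held 654 and 807 in 9134083 and 30171157 reads, and caudal MNs 195 and 262 in 2719766 and 13984987 reads. The fast MNs of both plates held 1 pnoca read in all, which gives a ratio of 3616 with a counting interval of 649 to 142830 (adjusted p = 0.0054). Counting intervals of such ratios treat reads as independent and cover no spread between cells or pools. The forkhead gene foxp4 had 252 and 437 CPM in slow-intermediate MNs, against 9.01 and 2.68 CPM in fast MNs (log2 difference 6.13 ± 0.86, adjusted p = 0.023). Reads of foxp4 were found in 25 of 71 and 25 of 59 members, which held 7863 and 11250 of them. In the sums given above, unmarked MNs held 3898 and 3448 foxp4 reads. That is a higher share of reads than in the members on plate 1 and a lower one on plate 2. Caudal MNs held 102 and 809 foxp4 reads, a lower share on both plates. The PAS-domain factor npas1 had 269 and 243 CPM, against 11.5 and 8.05 CPM (log2 difference 4.74 ± 0.57, adjusted p = 0.011). The G-protein regulator rgs3a had 767 and 922 CPM, against 85.5 and 69.6 CPM (log2 difference 3.44 ± 0.43, adjusted p = 0.011). Of the remaining higher genes, the collagen gene col19a1 had 73.6 and 56.2 CPM against 4.92 and 1.99 CPM, and the unnamed gene si:dkey-183i3.9 had 318 and 139 CPM against 14.5 and 9.74 CPM. In the sums given above, caudal MNs held 901 and 1592 col19a1 reads and the members 2297 and 1447. The share of reads was thus higher in caudal MNs than in the members on both plates. The orphan receptor gene gpr139, which fell short of the 50 CPM asked of named genes and is named after its values were seen, had 66.8 and 39.2 CPM in slow-intermediate MNs and no read in fast MNs. Caudal MNs held 201 and 611 gpr139 reads and the members 2086 and 1010, a share no lower in caudal MNs.

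Of the 14 genes lower in slow-intermediate MNs, neurod1, mafbb, nfixb, sox2, mecom and nhlh2 encode transcription factors. The basic helix-loop-helix gene neurod1 had 31.6 and 75.7 CPM in slow-intermediate MNs, against 1047 and 1574 CPM in fast MNs (log2 difference -4.70 ± 0.42, adjusted p = 0.0031). It reached 100 CPM in 12.7% and 13.6% of slow-intermediate MNs, against 70% and 93.5% of fast MNs. The nuclear factor I gene nfixb had 2.18 and 25.5 CPM, against 441 and 1342 CPM (log2 difference -6.32 ± 0.77, adjusted p = 0.011). On plate 2 a single member, at 1735 CPM, held 95.9% of the members' nfixb reads. The bZIP gene mafbb had 107 and 114 CPM, against 737 and 1176 CPM (log2 difference -3.07 ± 0.34, adjusted p = 0.0074). The fast MNs of both plates lay above the members of both plates for all 3 genes.

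The progenitor factor sox2 had 0.512 and 1.75 CPM in slow-intermediate MNs, against 226 and 318 CPM in fast MNs (log2 difference -8.02 ± 1.00, adjusted p = 0.011), with 69.6% of the fast reads of plate 1 in 1 cell. The zinc-finger factor mecom had 0 and 0.0388 CPM, which is 1 read, against 54.3 and 113 CPM, a ratio of 6157 with a counting interval of 1104 to 243286 (adjusted p = 0.023). The helix-loop-helix gene nhlh2 had 4.39 and 18.4 CPM, against 49.97 and 248 CPM (log2 difference -3.67 ± 0.59, adjusted p = 0.039). Of the plate 1 reads in fast MNs, 1 cell held 51.3% for mecom and 99.5% for nhlh2. Only 2 of those 10 fast MNs had an nhlh2 read. sox2 and mecom were thus close to absent from the members. The immature-neuron list (neurod4, olig2, NKX6-1, tubb5 and elavl3) summed to 1080 and 3906 CPM in slow-intermediate MNs, against 1519 and 8808 CPM in fast, 5578 and 12869 CPM in unmarked and 5204 and 7753 CPM in caudal MNs. Its part in the lower transcription factor genes was not tested.

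The other lower genes act outside the nucleus. adcyap1b, the precursor of the neuropeptide PACAP, had 28.03 and 69.7 CPM in slow-intermediate MNs, against 778 and 642 CPM in fast MNs (log2 difference -4.17 ± 0.60, adjusted p = 0.027), with 78.5% of the fast reads of plate 1 in 1 cell. The neuronal calcium-binding gene necab2 had 13.1 and 11.5 CPM, against 785 and 239 CPM (log2 difference -5.34 ± 0.70, adjusted p = 0.017). The heparan sulfatase gene sulf2a had 6.98 and 3.38 CPM, against 87.1 and 240 CPM, with 61.8% of the fast reads of plate 1 in 1 cell. Of the neuropeptide precursor genes called, pnoca was thus higher and adcyap1b lower in slow-intermediate MNs. tafa2, FNDC4 and inavaa followed at 3.56 to 24.1 CPM in slow-intermediate MNs, against 59.8 to 326 CPM in fast MNs. VASN, named after its values were seen, had 0.0641 and 0.0388 CPM, against 123 and 38.0 CPM.

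**Figure D3:**
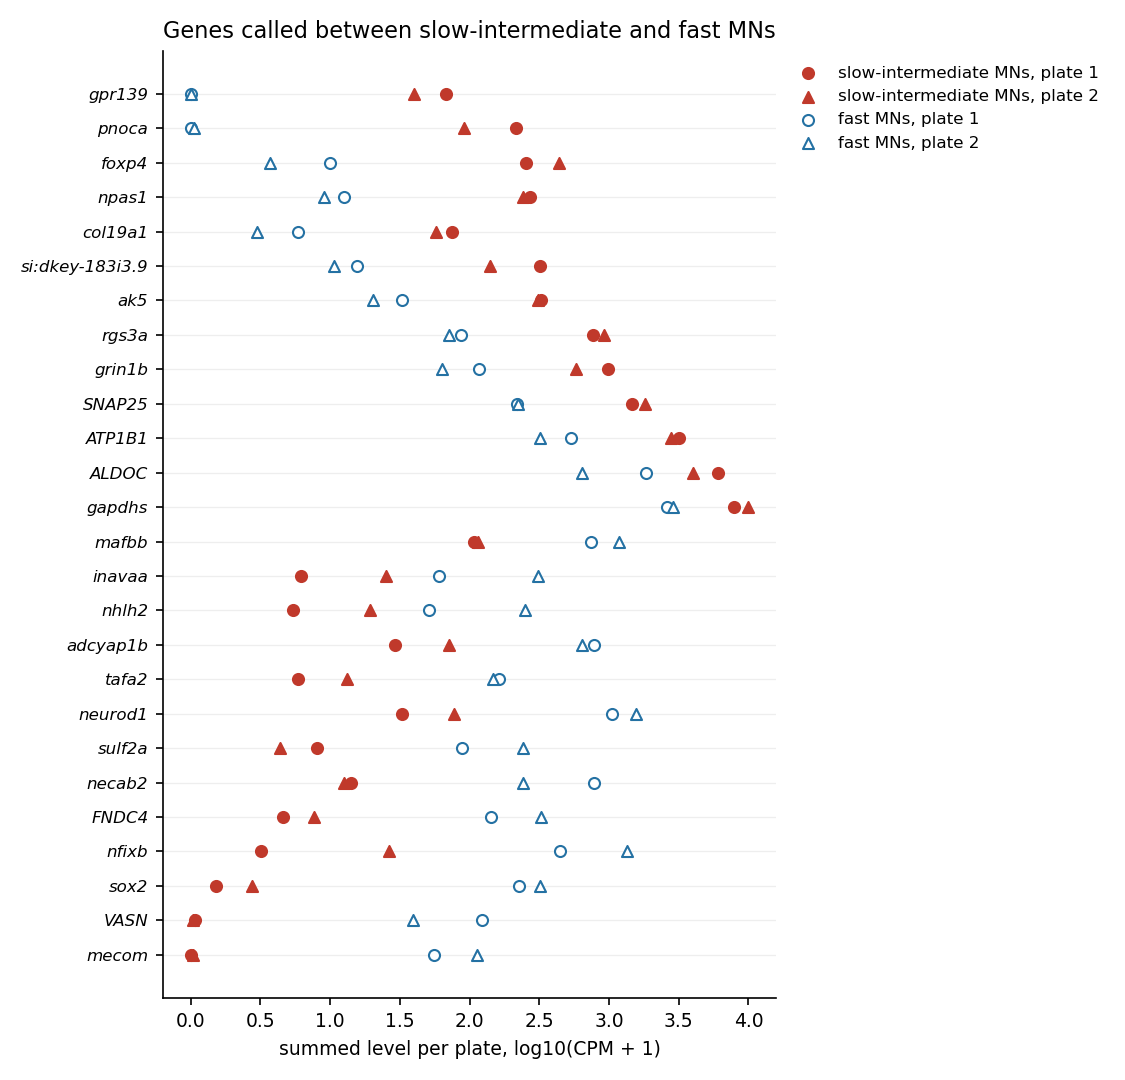
Summed levels per plate as log10(CPM + 1) of 26 of the 27 genes called between slow-intermediate MNs (filled) and fast MNs (open), circles for plate 1 and triangles for plate 2, ordered by log2 difference from the 13 higher genes at the top to 13 of the 14 lower genes at the bottom. For every gene shown both filled symbols lie on the same side of both open ones, for example neurod1 at 31.6 and 75.7 CPM in slow-intermediate MNs and 1047 and 1574 CPM in fast MNs. The genes were chosen by their difference in these same sums, so the separation is no further evidence. Levels did not overlap for 38.1% of all genes.

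A list of 34 genes that the study names in its text on MN and V2a interneuron types was followed, of which 27 were matched to a row. The study found many of them on the plates of this series and took others, such as pcdh9, sv2a and cdh6, from earlier work. The direction of the list is therefore not independent evidence. Of the 23 that were tested and not part of the rule, 1 was called higher (grin1b) and 2 lower (neurod1 and nfixb) against fast MNs, beside 0.156% of all genes. esrrga itself had 998 and 823 CPM in slow-intermediate MNs, against 98.6 and 513 CPM in fast MNs, and was not called (log2 difference 1.45 ± 0.80, adjusted p = 0.92). The oxidation resistance gene oxr1a had 513 and 255 CPM, against 34.4 and 38.5 CPM (log2 difference 3.18 ± 0.69, adjusted p = 0.15). The protocadherin genes pcdh9 and pcdh17 had 364 and 489 CPM and 457 and 500 CPM in slow-intermediate MNs, against 88.7 and 211 CPM and 183 and 168 CPM in fast MNs, and the vesicle gene sv2a had 205 and 266 CPM, against 102 and 158 CPM. The levels of these 4 genes did not overlap between the groups, which held for 38.1% of all genes, and none was called. oxr1b, the paralog of oxr1a, overlapped, with 250 and 188 CPM in slow-intermediate MNs, against 380 and 56.2 CPM in fast MNs. The homeodomain gene zfhx3b, which the study names for intermediate V2a interneurons, was also higher without overlap, with 139 and 109 CPM against 8.74 and 21.01 CPM (log2 difference 3.11 ± 0.64, adjusted p = 0.13). On the lower side, the cadherin gene cdh6 had 13.7 and 5.86 CPM, against 176 and 338 CPM (log2 difference -4.73 ± 0.86, adjusted p = 0.083), and nfixa had 0.160 and 0.970 CPM, against 71.5 and 168 CPM (adjusted p = 0.10).

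Counts of 16511 and 16419 genes were simulated with the spread of these sums. In them the comparison with fast MNs recovered 0% of 4-fold and 55.5% of 16-fold changes, so that a gene not called is not shown to be alike. The changed genes were drawn only from genes above a minimum mean level. The recovery given here and for the next comparisons therefore does not cover genes at lower levels. Without plate as a block 0 genes were called (870 at an unadjusted p below 0.05), and with at least 3000 detected genes per cell 12 genes, 11 of them among the 27. That limit left out 4 fast, 9 caudal and 14 unmarked MNs and no member. The log2 differences then were 3.55 for grin1b (adjusted p = 0.060), 6.58 for foxp4 (0.060) and -4.80 for neurod1 (0.31).

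The second comparison set the slow-intermediate MNs against the unmarked MNs, which carry the cholinergic genes below the limits on pvalb6 and on the fast and caudal markers. They are the cells the limits left over and not a defined MN type. Their immature-neuron list summed to 5578 and 12869 CPM, against 1080 and 3906 CPM in the members. Both grin1b and esrrga reached 100 CPM in 12 of 23 and 9 of 67 of them. The study described an immature cluster among its MNs. What part this mixture plays in the differences was not tested. Slow-intermediate MNs had less of the transcription factor genes neurod1, nhlh2, nfixb and mafbb, and less of sulf2a and the Ras-associated gene rassf1. The edgeR test called 7 of 17282 genes (0.0405%), all 7 of them lower in slow-intermediate MNs, and 0 genes higher. At an unadjusted p below 0.05, 425 genes were higher and 472 lower (5.19% together), and DESeq2 called 37 genes higher and 148 lower.

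neurod1 had 31.6 and 75.7 CPM in slow-intermediate MNs, against 468 and 1115 CPM in unmarked MNs (log2 difference -3.88 ± 0.40, adjusted p = 0.0088). nhlh2 had 4.39 and 18.4 CPM, against 526 and 735 CPM (log2 difference -6.12 ± 0.66, adjusted p = 0.0088), and nfixb had 2.18 and 25.5 CPM, against 1229 and 1396 CPM (log2 difference -7.20 ± 0.81, adjusted p = 0.0088). In the summed counts the members of both plates lay far below the unmarked MNs of either plate for these factors. Reads of neurod1, nhlh2 and nfixb were found in only 10, 8 and 8 of the 23 unmarked MNs of plate 1. On plate 2 they were found in 54, 46 and 48 of 67. Among members the numbers were 22, 4 and 10 of 71 on plate 1 and 15, 7 and 11 of 59 on plate 2. mafbb had 107 and 114 CPM, against 728 and 1094 CPM (log2 difference -3.01 ± 0.34, adjusted p = 0.0088). sulf2a had 6.98 and 3.38 CPM against 213 and 466 CPM, and rassf1 had 7.17 and 18.2 CPM against 121 and 372 CPM, with adjusted p = 0.023 and 0.042. On plate 1, 8 of the 23 unmarked MNs had a rassf1 read, with 53.9% of the reads in 1 cell. The groups did not overlap in any of the 7 genes, which held for 40.6% of all genes. The comparisons with unmarked and with fast MNs share the members' sums and are not independent of each other.

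The slow markers were present in unmarked MNs of plate 1 in particular. grin1b had 990 and 577 CPM in slow-intermediate MNs, against 532 and 91.8 CPM in unmarked MNs (log2 difference 1.69 ± 0.46, adjusted p = 0.41). esrrga had 998 and 823 CPM, against 674 and 123 CPM (log2 difference 1.30 ± 0.79, adjusted p = 1.00). Neither was called, and the differences were larger on plate 2. The pump gene atp1a3b, which encodes an alpha subunit, had 1963 and 2060 CPM in slow-intermediate MNs, against 631 and 234 CPM in unmarked MNs (log2 difference 2.40 ± 0.42, adjusted p = 0.099), and pcdh9 had 364 and 489 CPM, against 192 and 121 CPM (log2 difference 1.41 ± 0.50, adjusted p = 0.73).

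The simulated test for this comparison recovered 2.5% of 4-fold and 55% of 16-fold changes. Without plate as a block 0 genes were called (657 at an unadjusted p below 0.05), and with at least 3000 detected genes per cell 1 gene, nfixb, while the log2 difference of neurod1 shrank to -2.52.

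The third comparison was with caudal MNs, which carry the posterior homeobox gene hoxb13a. Here edgeR called 0 of 17282 genes (0%), with 698 genes higher and 441 lower at an unadjusted p below 0.05 (6.59% together), and DESeq2 called 466 genes. neurod1, nfixb and the posterior gene hoxc11a are given as values. neurod1 had 31.6 and 75.7 CPM in slow-intermediate MNs, against 405 and 424 CPM in caudal MNs (log2 difference -3.11 ± 0.39, adjusted p = 0.069). nfixb had 2.18 and 25.5 CPM, against 277 and 394 CPM (log2 difference -5.16 ± 0.74, adjusted p = 0.069). hoxc11a had 100 and 163 CPM in slow-intermediate MNs, against 1.87 and 0.0719 CPM in caudal MNs (log2 difference 7.96 ± 1.22, adjusted p = 0.069). None overlapped between the groups, which held for 42.1% of all genes, and on plate 1 neurod1 had a read in 2 caudal MNs and nfixb in 3. With RLE factors neurod1 and nfixb reached adjusted p = 0.049, and with at least 3000 detected genes per cell, which left 6 and 25 caudal MNs, the log2 difference of neurod1 was only -0.30.

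Caudal MNs shared the slow markers in part. grin1b had 990 and 577 CPM in slow-intermediate MNs, against 679 and 260 CPM in caudal MNs (log2 difference 0.88 ± 0.44, adjusted p = 0.74), and esrrga had 998 and 823 CPM, against 334 and 205 CPM (log2 difference 1.78 ± 0.78, adjusted p = 0.74). SNAP25 (ENSDARG00000058117), which was called against fast MNs, was at 1458 and 1805 CPM in slow-intermediate MNs and 1148 and 1325 CPM in caudal MNs. The simulated test recovered 5% of 4-fold and 58% of 16-fold changes here, with 8 caudal MNs on plate 1.

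Gene lists chosen by symbol, with earlier results of these data known, are described by counts and medians. The lists of the respiratory chain and of metabotropic glutamate receptors lay above the median of all genes in slow-intermediate MNs, and those of MN transcription factors and of ribosomal proteins lay below it, against each of the 3 other groups in the fit of both plates. The lists of potassium channels, HCN channels, acetylcholine receptors and the sodium/potassium pump also lay above that median each time. Those of cadherins, cytoskeleton, connexins, hox genes and study-named genes also lay below it each time. Against caudal MNs the respiratory chain was only just above it, and on plate 1 it lay below, at 0.65 beside 1.11 for all genes. For the nuclear genes of the respiratory chain and ATP synthase, 112 of 116 were tested and 0 were called in any comparison. Their median log2 difference was 0.86 against fast MNs, 1.11 against unmarked MNs and 0.63 against caudal MNs, beside 0.27, 0.17 and 0.56 for all genes. Against fast MNs, 30 of the 112 genes had a higher level at an unadjusted p below 0.05 (3.37% of all genes) and 0 a lower one. Against unmarked MNs, 46 were higher (2.46% of all genes) and 1 lower, and against caudal MNs, 7 were higher (4.04% of all genes) and 0 lower.

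Single members of that list show the size of the differences. The ATP synthase gene ATP5F1A had 2156 and 2405 CPM in slow-intermediate MNs, against 980 and 929 CPM in fast MNs, 1103 and 910 CPM in unmarked MNs and 1076 and 1437 CPM in caudal MNs. The complex II gene sdha had 1177 and 873 CPM, against 502 and 288 CPM in fast MNs, and ndufa4b, of the respiratory chain, had 1064 and 1061 CPM, against 380 and 245 CPM. Levels of these 3 genes did not overlap between slow-intermediate and fast MNs, which held for 38.1% of all genes, and none passed the adjusted test. The 13 protein genes of the mitochondrial genome had medians of 0.63, 0.78 and 0.56 against fast, unmarked and caudal MNs, beside 0.27, 0.17 and 0.56 for all genes. All 13 were higher on both plates in each comparison, as were 32.7%, 32.6% and 38.7% of all genes. Against caudal MNs their median was no higher than that of all genes, and on plate 1 it was lower, at 0.35 beside 1.11. For example, MT-CYB had 5454 and 6292 CPM in slow-intermediate MNs, against 4820 and 3395 CPM in fast MNs. The part of the higher mitochondrial share of reads in the members was not tested here.

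Of the 12 metabotropic glutamate receptor genes tested, 8 were higher and 0 lower on both plates than in fast MNs, beside 32.7% and 21% of all genes, with a median of 1.64, and 0 were called. GRM5, a receptor that couples to calcium release, had 84.5 and 128 CPM in slow-intermediate MNs, against 22.4 and 18.9 CPM in fast MNs. grm4, an inhibitory autoreceptor gene, had 134 and 297 CPM, against 92.0 and 76.2 CPM. Against unmarked and caudal MNs the medians were 1.09 and 3.79, on few reads for most of these genes. Ionotropic glutamate receptors had a median of 0.13 against fast MNs, and -0.04 with RLE factors, over 32 genes. Of these, 1 gene was called higher (grin1b), beside 0.0752% of all genes.

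Among ion channels, the 5 HCN genes tested, which carry the hyperpolarisation-activated current, had a median of 3.83 against fast MNs, with 0.86 on plate 1 and 4.84 on plate 2, and 0 were called. One HCN4 gene (ENSDARG00000074419) had 39.1 and 42.9 CPM in slow-intermediate MNs, against 0 and 0.199 CPM in fast MNs, and the other (ENSDARG00000061685) had 9.06 and 13.9 CPM, against 0 and 0 CPM. Both HCN4 genes were thus low or at 0 in fast MNs, whose counts of them are small. The members held 640 reads of the second gene and the fast MNs 0. The number of cells with these reads is not given here. Potassium channels (90 genes, median 0.48), sodium channels (11 genes, -0.39) and calcium channels (38 genes, 0.14) held 0 called genes, and the median of sodium channels had opposite signs on the plates, -0.93 on plate 1 and 0.21 on plate 2. The delayed rectifier genes kcnc3a and KCNA1 stood at 149 and 125 CPM and 163 and 149 CPM in slow-intermediate MNs, against 519 and 151 CPM and 706 and 163 CPM in fast MNs, so the larger levels came from the 10 fast MNs of plate 1.

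Of 15 sodium/potassium pump genes, 1 was called higher against fast MNs (ATP1B1), with a list median of 0.30. The alpha subunit gene atp1a3a had 2526 and 2183 CPM in slow-intermediate MNs, against 469 and 703 CPM in fast MNs. Its copy atp1a3b had 1963 and 2060 CPM, against 2769 and 976 CPM, and overlapped between the groups. Of 72 synaptic vesicle and release genes, 1 was called (SNAP25), with a median of 0.58, and of 37 calcium-binding genes 1 was called lower (necab2), with a median of -0.10. Over all genes, 0.0752% were called higher and 0.081% lower against fast MNs. Cadherins and protocadherins (82 genes) had a median of 0.05 against fast MNs and -0.08 with RLE factors, with 0 called.

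Of the 33 MN transcription factor genes tested, 1 was called higher (foxp4) and 2 lower (neurod1 and nfixb) against fast MNs, and 0 higher and 2 lower (neurod1 and nfixb) against unmarked MNs. Of all genes, 0.0752% were called higher and 0.081% lower against fast MNs, and 0% and 0.0405% against unmarked MNs. The list medians were -1.44 against fast MNs and -2.28 against unmarked MNs, and part of the list is among the genes the study names, so its direction is not independent evidence. At an unadjusted p below 0.05, 16 genes were lower against fast MNs (2.27% of all genes) and 16 against unmarked MNs (2.73% of all genes). isl1a, whose regulatory DNA drives the GFP of the line, had 218 and 334 CPM in slow-intermediate MNs, against 405 and 1148 CPM in fast MNs and 569 and 1247 CPM in unmarked MNs, and mnx1 had 109 and 109 CPM, against 473 and 995 CPM and 166 and 333 CPM. NKX6-1 had 5.70 and 17.4 CPM, against 30.04 and 215 CPM in fast MNs and 76.4 and 289 CPM in unmarked MNs. These 3 genes lay lower in slow-intermediate MNs on both plates and were not called.

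Cytosolic ribosomal protein genes (90 tested) had medians of -0.49 against fast MNs, -0.82 against unmarked MNs and -0.59 against caudal MNs, with 0 called in any of the 3. Against unmarked MNs, 75 of the 90 were lower on both plates, beside 25.1% of all genes. At an unadjusted p below 0.05, 25 were lower, beside 2.73% of all genes. rpl3 had 377 and 870 CPM in slow-intermediate MNs, against 993 and 1618 CPM in fast MNs and 584 and 1880 CPM in unmarked MNs. Of 45 hox genes, 24 were lower on both plates against fast MNs, beside 21% of all genes, with a median of -0.79, and 0 were called. Orphan nuclear receptors (20 genes) had a median of 1.41 against fast MNs, with NR2F1 at 327 and 341 CPM in slow-intermediate MNs, against 69.4 and 271 CPM, and nr2f2 at 223 and 258 CPM, against 76.5 and 116 CPM. The lists of acetylcholine receptors (21 genes, median 0.59), glycine and GABA-A receptors (23 genes, 0.28), cytoskeleton (29 genes, -0.03) and connexins (10 genes, -0.56) held 0 called genes against fast MNs.

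**Figure D4:**
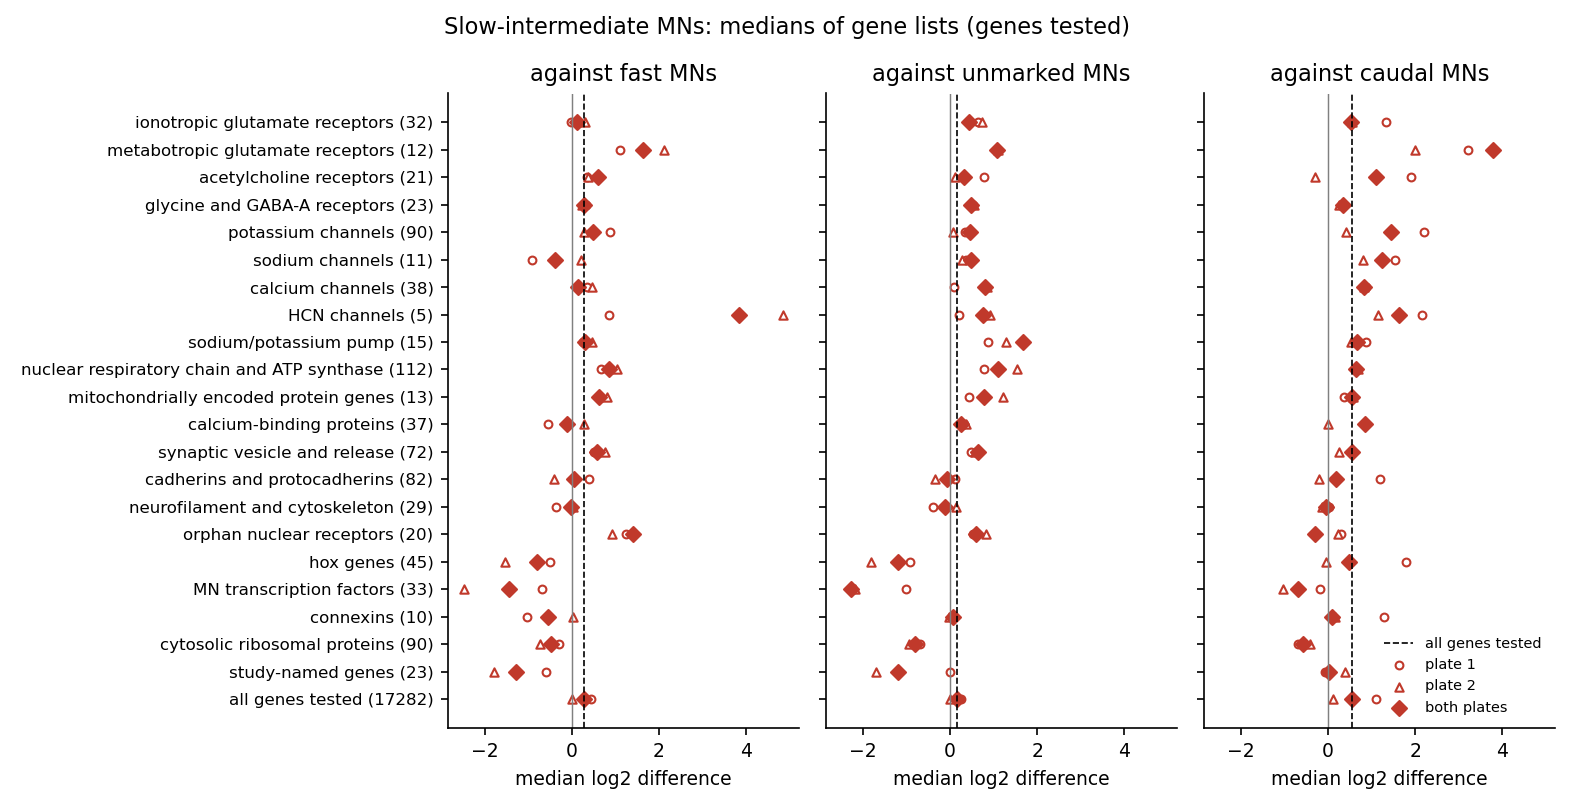
Median log2 difference of slow-intermediate MNs against fast, unmarked and caudal MNs for each gene list, with the number of genes tested in brackets, filled diamonds for both plates in 1 fit, open circles for plate 1 and open triangles for plate 2, and a dashed line at the median of all genes. Respiratory chain genes lay at 0.86, 1.11 and 0.63 and cytosolic ribosomal protein genes at -0.49, -0.82 and -0.59, on opposite sides of the line in each panel.

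The last comparison split the slow-intermediate MNs of each plate at the plate's median of pvalb6, since the study set intermediate MNs at higher pvalb6 and slow MNs at higher grin1b and esrrga. The cut divides a continuous level and does not define types. MNs below 100 CPM of pvalb6 had already been left out by the rule. The cut thus covers only part of the range of pvalb6 and cannot test the order that the study gives. The 64 pvalb6-higher MNs had 1494 and 1970 CPM of pvalb6 and the 66 pvalb6-lower MNs 460 and 517 CPM, by construction. Neither marker was called between them. No simulated recovery was run for this split, so a gene not called is not shown to be alike. The study also counted RNA puncta in slow and intermediate MNs labelled from the muscle, which this cut does not repeat. grin1b had 1047 and 561 CPM in pvalb6-higher MNs, against 899 and 586 CPM in pvalb6-lower MNs (log2 difference 0.05 ± 0.42, adjusted p = 1.00). esrrga had 917 and 895 CPM in pvalb6-higher MNs, against 1059 and 751 CPM in pvalb6-lower MNs (log2 difference 0.03 ± 0.73, adjusted p = 1.00). The order of the pvalb6-higher and pvalb6-lower MNs differed between the plates for each gene.

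Between the pvalb6-higher and pvalb6-lower MNs, edgeR called 0 of 17519 genes (0%), with 61 genes higher and 154 lower at an unadjusted p below 0.05 (1.23% together), and DESeq2 called 34 genes. The lowest adjusted p belonged to genes that were also scarce in the members as a whole. nhlh2 had 0 and 0.408 CPM in pvalb6-higher MNs, against 9.11 and 34.4 CPM in pvalb6-lower MNs (log2 difference -6.79 ± 0.87, adjusted p = 0.067). sulf2a had 0.0602 and 0.0816 CPM, which is 2 reads, against 14.4 and 6.31 CPM, a ratio of 153 with a counting interval of 42.1 to 1273 (adjusted p = 0.067). Few cells carried these reads. In pvalb6-lower MNs, nhlh2 had a read in 4 cells on each plate, with 89.8% and 72.3% of the reads in 1 cell, and sulf2a in 4 and 2 cells, with 52.5% and 98.8% of the reads in 1 cell. Respiratory chain genes had a median of 0.26 here and ribosomal protein genes -0.27, beside -0.00 for all genes, with 0 called in either list. Detected genes had medians of 5354 and 5640 in pvalb6-higher MNs, against 5182 and 4946 in pvalb6-lower MNs, and their part in these values was not tested.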

How the data were processed

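Single cells were sequenced with Smart-seq2. The authors aligned the reads to GRCz11 with STAR 2.5.3a and deposited raw counts of uniquely mapped reads per gene. The counting program and the annotation are not given in the sources used here. Spike-in reads (3.17% of all counts) and GFP reads (0.517%) were kept out of library sizes and tests. Of 32519 genes, 29200 received a symbol from tables of a later assembly, used for names only. grin1b was matched through counts that the study lists per cell, and esrrga by elimination. No doublet caller was run, since single cells were sorted into wells.

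Counts were summed per plate and MN group and fitted with edgeR 4.0.16 in R 4.3.3 (TMM factors, filterByExpr, quasi-likelihood test), with 4 groups in 1 fit and plate as a block, and a second fit of 5 groups (17519 genes) for the pvalb6-higher and pvalb6-lower MNs, and p-values adjusted by Benjamini-Hochberg over all genes. Levels called CPM of summed counts carry the TMM factors. The 8 genes of the rule received no test. Differences are slow-intermediate MNs over the other group, or pvalb6-higher over pvalb6-lower MNs. With 2 plates and plate in the model, the p-values measure only how far the group differences varied between these pools. Each plate held 1 pool of cords that supplied every group, which pairs the groups, and deviations of same-plate sums correlated at r = 0.0976 to 0.166 across genes in the first fit and 0.069 to 0.176 in the second. Named genes were the called genes with at least 50 CPM on both plates in the higher group, at most 12 per direction, the study's named genes, and up to 4 of the most abundant genes of each list. Alternatives used DESeq2 1.42.0, limma 3.58.1 on log2(CPM + 1), RLE factors, thinned cells and other cell limits. The fit of 4 groups was tested on simulated data, and the fit of 5 groups was not. No 2 MN wells held identical counts. Some genes are not reported here. The members and the lists were chosen with earlier results of these data known.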

Additional observations from a re-analysis of the deposited data

Results flagged for a closer look

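The defining markers also occurred in cells outside the MN groups. pvalb6 reached 100 CPM in 26.03% and 34.1% of the cerebrospinal-fluid-contacting cells of plates 1 and 2, where 0 cells would allow up to 4.11% and 3.66%. It did so in 24% and 25.5% of the chx10:GFP cells of that line's plates 1 and 2, with a median of 0 CPM on both. grin1b reached 100 CPM in 90.3% and 85.2% of chx10:GFP cells, with medians of 749 and 776 CPM, where 0 cells would allow up to 1% and 0.923%. The comparisons between MN groups use none of these cells. These shares cover counting error only.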

How the results depend on the processing

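Without the plate block the pairing was lost and 0 genes were called against fast, unmarked and caudal MNs and between the pvalb6-higher and pvalb6-lower MNs. DESeq2 called 379, 185, 466 and 34 genes in that order, and no filter on low counts 238, 202, 180 and 24. Against unmarked MNs, RLE factors gave 16 called genes, thinned cells 16, mean single-cell CPM 19 and at least 3000 detected genes 1. Against caudal MNs, RLE factors gave 8, thinned cells 2, mean single-cell CPM 16 and calb1 and chrna2b below 100 CPM 7. Against fast MNs, at least 3000 detected genes gave 12. Between pvalb6-higher and pvalb6-lower MNs, pvalb6 of at least 300 CPM gave 2 and calb1 and chrna2b below 100 CPM 1. Of the 27 genes called against fast MNs, 26 were called by DESeq2, 27 with RLE factors, 25 in thinned cells and 24 with mean single-cell CPM. The log2 difference against fast MNs changed sign for foxp1b (0.041 without the filter, 0.60 in thinned cells, 0.0072 with calb1 and chrna2b below 100 CPM), neurod4 (1.20 with at least 3000 genes) and SNAP25 ENSDARG00000020609 (0.031 without the filter), and for esrrga between pvalb6-higher and pvalb6-lower MNs (-0.0265 with pvalb6 of at least 300 CPM, -0.0185 with calb1 and chrna2b below 100 CPM). None of these was called, and the cause was not tested. A limit of 30% on mitochondrial reads removed no MN, since the highest share was 19.99%, and so tests nothing. Leaving out 1 plate gives a value with no test.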
